A study of Rattus norvegicus with 12 samples.

Results

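RAH-2 is a rat androgenetic haploid embryonic stem (ES) cell line, and its 3 arrays were set against the 3 arrays of the diploid ES cell line DA5-3, 6 of the 12 arrays in the series. The arrays were chosen by the line named in their titles. A further androgenetic haploid line, RAH-6, with 3 arrays, was used to ask which differences RAH-2 shows and RAH-6 does not, and the 3 arrays of freshly isolated round sperm cells entered an alternative fit only. All cells came from the Dark Agouti (DA) inbred strain. The ES lines shared their medium (N2B27-2i) and were passaged and dissociated in the same way, with trypsin and chicken serum, before total RNA was taken with Trizol. Each group stands for 1 line with 3 samples that the labels call biological replicates, so ploidy, parental origin and line cannot be told apart, and p-values reflect how far samples of a single line vary. The labels used here give no passage number, no share of haploid cells and no feeder layer.

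Androgenetic ES cells come from embryos whose genome is entirely paternal, and haploid lines tend to become diploid during culture. ES cells express a network of transcription factors that includes Sox2, Klf4 and Esrrb, and 2i medium holds them in a naive state by inhibiting the kinases MEK and GSK3. The hypoxia response is a set of genes switched on when oxygen is low, when the transcription factor HIF escapes its breakdown and binds promoters and enhancers at a short core motif. Its targets include the vasodilator peptide adrenomedullin, regulators of glycolysis and enzymes of the endoplasmic reticulum. Mesenchymal genes, such as those of the fibrillar collagens and vimentin, mark fibroblasts and are otherwise low in naive ES cells.

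The main markers of ES cells that could be read were detected on all 9 ES arrays. Zfp42, Dppa5 and Tdgf1 had no probe set that named them alone. Esrrb, a nuclear receptor of the naive state, had signals of 3872, 3931 and 3904 in RAH-2, 3025, 3084 and 3272 in RAH-6, and 5284, 5066 and 5230 in DA5-3. Sox2, Klf4, Tfcp2l1, Sall4 and Lin28a likewise had signals of 2621 or more on every ES array, whereas the early neural genes Sox1 and Pax6 and the blood gene Ptprc stayed below 100. A signal of 100 was used as the floor of detection, and Fbxo15, another ES marker, was under it on DA5-3 replicate 3 (51.2) and above it on the other ES arrays. Some markers of other cells were above the floor. Among markers of extraembryonic endoderm, Lama1, Col4a1, Sox7 and Sox17 were above it on all 9 ES arrays. Gata4, Gata6, Dab2 and Afp were below it on every RAH-2 array. Sox7 had signals of 170, 154 and 133 in RAH-2, 313, 300.5 and 315 in RAH-6, and 168, 177 and 137 in DA5-3. Among trophoblast markers, Cdx2 had signals of 2026, 1636 and 1818 in RAH-2, 1093, 1030 and 1079 in RAH-6, and 1405, 1318 and 1327 in DA5-3. Eomes ran the other way against DA5-3, at 318, 315 and 344 in RAH-2, 268, 285 and 275 in RAH-6, and 1009, 875 and 788 in DA5-3. Elf5, Gata3, Hand1 and Krt7 were below 100 on all 9 ES arrays. The neural genes Dcx and Tubb3 were at least 174 and 619 in RAH-2, and the macrophage gene Cd68 was at most 86.5 in RAH-2 and reached 197 in RAH-6. On each array of RAH-2 between 47.3% and 48.4% of probe sets reached 100. The number of arrays limits the precision of every value.

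Of 9323 genes tested, 313 were higher and 298 lower in RAH-2 than in DA5-3, which is 3.36% and 3.20% of genes. A gene was called when its limma adjusted p was below 0.05 and its log2 difference was at least 1. Between the haploid lines the calls were far fewer, with 18 genes higher (0.193%) and 57 lower (0.611%) in RAH-2 than in RAH-6. RAH-6 itself had 445 genes higher (4.77%) and 271 lower (2.91%) than DA5-3. The contrast between the lines is the test of whether they differ in their distance from DA5-3, since the DA5-3 arrays cancel in it. Genes called against DA5-3 and, in the same direction, against RAH-6 numbered 6 higher (0.0644%) and 29 lower (0.311%). The 6 were Adm, Ankrd37, Grhl3, Fgfbp3, Rflna and Fhit, and for each of them no RAH-2 array overlapped an array of either other line. Among the 29 lower genes 23 were free of overlap, but 16 were below 100 on every RAH-2 array. Overlap was counted only among genes already called, so these counts describe them and add no support. The median difference over all genes was 0.03 against DA5-3 and -0.01 against RAH-6.

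Of the 6 genes higher in RAH-2 than in both other lines, Adm and Ankrd37 are hypoxia response genes. Adm, which encodes adrenomedullin, had signals of 851, 1049 and 973 in RAH-2, 329, 315 and 323 in RAH-6, and 68.7, 77.5 and 67.5 in DA5-3. The 3 lines formed separate levels with RAH-2 on top. With every DA5-3 array below 100, Adm was at least 9.54-fold higher in RAH-2 than in DA5-3 (adjusted p = 3.43e-10) and 1.52 ± 0.11 (log2 difference ± SE) above RAH-6 (adjusted p = 9.77e-06). Ankrd37, an ankyrin repeat gene known as a HIF target, read 892, 873 and 957 in RAH-2, 357, 328 and 352 in RAH-6, and 348, 317 and 253 in DA5-3. Here RAH-6 lay at the level of the diploid line and only RAH-2 was raised, by 1.53 ± 0.11 over DA5-3 (adjusted p = 3.5e-07) and 1.35 ± 0.11 over RAH-6 (adjusted p = 1.7e-05). For Ankrd37 the difference between RAH-6 and DA5-3 was 0.18, with a 95% interval from -0.06 to 0.42.

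Another 3 hypoxia response genes were called between the lines without being called against DA5-3. Ddit4, an inhibitor of the growth kinase mTORC1, had signals of 2426, 2717 and 3010 in RAH-2, 1138, 1001 and 1014 in RAH-6, and 1569, 1399 and 1781 in DA5-3. RAH-2 was the highest and RAH-6 the lowest line for Ddit4, with no overlap among the groups. RAH-2 exceeded RAH-6 by 1.35 ± 0.10 (adjusted p = 9.77e-06), and its 0.78 ± 0.10 over DA5-3 passed the adjusted p but not the limit on size. Pfkfb3, whose product raises the level of an activator of glycolysis, showed the same order, at 1429, 1420 and 1661 in RAH-2, 641, 655 and 657 in RAH-6, and 984, 1014 and 1056 in DA5-3. Its difference between RAH-2 and RAH-6 was 1.18 ± 0.07 (adjusted p = 7.44e-06). Ero1a, an oxidase that forms disulfide bonds in the endoplasmic reticulum, read 1772, 1934 and 1881 in RAH-2, 917, 743 and 922 in RAH-6, and 1481, 1287 and 1326 in DA5-3. RAH-2 was again on top, 1.10 ± 0.09 above RAH-6 (adjusted p = 1.38e-05), although a weaker probe set of Ero1a, with means of 149 in RAH-2, 136 in RAH-6 and 94.3 in DA5-3, differed by only 0.13 between the haploid lines, and the call was lost with the mean of both probe sets.

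**Figure D1:**
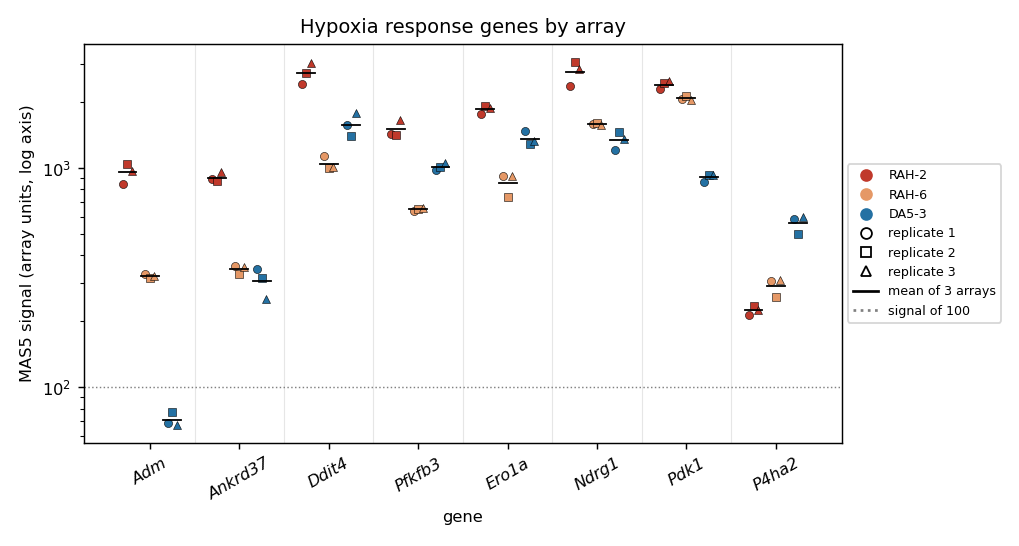
MAS5 signal (array units, log axis) of 8 hypoxia response genes on each array of RAH-2, RAH-6 and DA5-3, with the mean of 3 arrays as a line and a signal of 100 dotted. For Adm, Ankrd37, Ddit4, Pfkfb3 and Ero1a the RAH-2 arrays lie above all others. By the probe set shown, Pdk1 is similar in RAH-2 and RAH-6, and P4ha2 is lowest in RAH-2.

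The promoters of these genes are shown because HIF recognises the core ACGTG, and they differ in how often it occurs. The 250 bases upstream of the start of each gene are given 5′ to 3′ on the strand of the gene, from RefSeq on the rat assembly GRCr8, with matches to ACGTG on either strand in capitals (CACGTG holds overlapping matches on both strands). They lie at chr16:53001257-53001506 (plus strand) for Ankrd37, chr20:28437038-28437287 (minus strand) for Ddit4, chr17:71944683-71944932 (plus strand) for Pfkfb3 and chr1:174179950-174180199 (plus strand) for Adm.
Ankrd37: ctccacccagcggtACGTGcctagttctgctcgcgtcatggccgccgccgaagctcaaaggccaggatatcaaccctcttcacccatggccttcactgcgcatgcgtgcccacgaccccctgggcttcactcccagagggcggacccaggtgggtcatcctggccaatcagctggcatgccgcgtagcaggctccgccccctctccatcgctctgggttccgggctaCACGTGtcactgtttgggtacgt
Ddit4: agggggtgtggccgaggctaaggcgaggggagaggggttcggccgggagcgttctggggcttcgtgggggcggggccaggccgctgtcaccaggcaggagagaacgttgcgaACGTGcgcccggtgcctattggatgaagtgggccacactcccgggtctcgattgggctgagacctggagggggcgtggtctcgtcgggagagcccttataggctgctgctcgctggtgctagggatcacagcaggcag
Pfkfb3: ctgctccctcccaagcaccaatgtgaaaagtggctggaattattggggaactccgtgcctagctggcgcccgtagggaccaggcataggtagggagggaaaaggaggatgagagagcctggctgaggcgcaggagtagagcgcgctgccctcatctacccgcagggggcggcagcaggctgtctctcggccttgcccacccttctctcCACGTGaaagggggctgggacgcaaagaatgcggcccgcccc
Adm: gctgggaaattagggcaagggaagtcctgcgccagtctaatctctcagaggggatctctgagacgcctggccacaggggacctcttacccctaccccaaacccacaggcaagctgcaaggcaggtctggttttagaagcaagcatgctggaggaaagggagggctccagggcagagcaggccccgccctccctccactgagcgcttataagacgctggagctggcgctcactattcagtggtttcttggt
Ankrd37 held 3 matches, Ddit4 1 and Pfkfb3 2, and none was found in the window of Adm. The core is common: 16.6% of 33469 rat promoters of this length and 24.4% of the 7879 promoters matched to tested genes held it, against 14 of the 28 matched promoters of the hypoxia list (50%). A match describes these letters only, and binding was not measured.

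Most of the list was not called. Of 34 hypoxia response genes measured, 4 were higher (Adm, Ankrd37, Pdk1 and Ndrg1) and 1 lower (P4ha2) in RAH-2 than in DA5-3, beside 3.36% and 3.20% of all genes, with a median of 0.23 against 0.03 over all genes. Against RAH-6, 5 were higher and 0 lower, beside 0.193% and 0.611%, with a median of 0.24, and without the limit on size 16 of the 34 passed the adjusted p in the higher direction, beside 9.21% of all genes. Ndrg1, a stress-induced gene, had signals of 2381, 3052 and 2838 in RAH-2, 1586, 1616 and 1580 in RAH-6, and 1215, 1458 and 1362 in DA5-3. Its arrays did not overlap, and the 1.02 ± 0.09 over DA5-3 stood at the limit on size, which it missed without replicate 2 or 3 of RAH-2 or replicate 1 of DA5-3. Pdk1, a kinase that keeps pyruvate out of the mitochondria, was raised in both haploid lines by its brighter probe set. Its signals were 2291, 2442 and 2497 in RAH-2, 2079, 2134 and 2049 in RAH-6, and 865, 931 and 927 in DA5-3. On a weaker probe set of Pdk1 the means were 520 in RAH-2, 356 in RAH-6 and 308 in DA5-3. There RAH-2 was 0.53 above RAH-6 and 0.75 above DA5-3. P4ha2, a prolyl hydroxylase that matures collagen, ran the other way, at 213, 236 and 225 in RAH-2, 307, 257 and 308 in RAH-6, and 588, 499 and 601 in DA5-3, and fell by 1.26 ± 0.11 against DA5-3.

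Glycolysis genes divided. Of 21 measured, 3 (Pfkp, Eno2 and Pdk1) were higher and 0 lower than in DA5-3, beside 3.36% and 3.20% of all genes. Against RAH-6, 0 were called by limma, beside 0.193% higher and 0.611% lower. By the adjusted p alone 6 were higher and 0 lower than in RAH-6, beside 9.21% and 9.76% of all genes. Pfkp, a phosphofructokinase, had signals of 5443, 5186 and 5313 in RAH-2, 4681, 4681 and 4989 in RAH-6, and 1815, 1756 and 1863 in DA5-3, so that both haploid lines lay above the diploid one. The enolase gene Eno2 was near the floor, at 96.9, 158 and 124 in RAH-2, 71.0, 112 and 76.9 in RAH-6, and below 100 on every DA5-3 array. It passed the filter on signal through haploid arrays alone. Without RAH-2 replicate 2 it no longer passed, which left 2 glycolysis genes called higher than in DA5-3. Pgk1 and Ldha, glycolytic enzymes on the hypoxia list, were not called. Pgk1 averaged 30170 ± 1952 in RAH-2, 30290 ± 1184 in RAH-6 and 32410 ± 1114 in DA5-3 (SD, n = 3 each), and Ldha differed by 0.01 between RAH-2 and RAH-6 and by -0.03 between RAH-2 and DA5-3. Vegfa, the angiogenic factor, was 0.10 above RAH-6 in RAH-2 and not called. The Gapdh 3′ to 5′ signal ratio, which grows with RNA degradation, lay between 1.23 and 1.30 in RAH-2, between 1.11 and 1.16 in RAH-6, and between 1.35 and 1.70 in DA5-3, so RAH-2 lay between the lines in this ratio. The same ratio of beta-actin lay between 3.99 and 4.93 in RAH-2, between 2.94 and 3.28 in RAH-6, and between 4.62 and 8.54 in DA5-3. By beta-actin RAH-2 overlapped DA5-3, whose replicate 1 was highest. The part of RNA degradation in the hypoxia differences was not tested.

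Beyond the hypoxia genes, 4 more genes were higher in RAH-2 than in both other lines. Grhl3, a transcription factor of surface ectoderm and epidermis, had signals of 552, 548 and 491 in RAH-2, 265, 273 and 231 in RAH-6, and 131, 214 and 172 in DA5-3. RAH-2 was highest on every array, by 1.56 ± 0.15 over DA5-3 (adjusted p = 3.78e-06) and 1.00 ± 0.15 over RAH-6 (adjusted p = 0.000838), the last at the limit on size and below it when replicate 1 or 2 of RAH-2, or replicate 3 of RAH-6, was left out. Fgfbp3, which encodes a secreted carrier of fibroblast growth factors, read 440.3, 407 and 440.1 in RAH-2, 192, 130 and 146 in RAH-6, and 203, 199 and 179 in DA5-3. Only RAH-2 stood out for Fgfbp3, by 1.09 ± 0.14 over DA5-3 and 1.39 ± 0.14 over RAH-6 (adjusted p = 3.81e-05 and 5.89e-05).

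Rflna, which encodes an actin-organising partner of filamin, and the hydrolase gene Fhit were graded across the lines. Rflna had signals of 278, 226 and 278 in RAH-2, 137, 101 and 124 in RAH-6, and 35.8, 60.3 and 58.0 in DA5-3, at least 2.60-fold higher in RAH-2 than in DA5-3 and 1.02 ± 0.20 above RAH-6 (adjusted p = 0.00411). Leaving out replicate 1 or 3 of RAH-2, or replicate 2 of RAH-6, ended the call of Rflna between the lines. Fhit reached 114, 128 and 105 in RAH-2 and stayed below 100 on every RAH-6 and DA5-3 array. Fhit passed the filter on signal through the RAH-2 arrays alone and so had to differ, and its place among the 6 genes is a description. Its mean in RAH-2 was at least 1.16-fold above the floor that bounds both other lines, and its call against RAH-6 was lost without RAH-6 replicate 1 or 2.

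Lower in RAH-2 than in both other lines, and even among its replicates, was Crb3, a Crumbs protein of the apical membrane of epithelia. Its signals were 129, 185 and 138 in RAH-2, 353, 285 and 354 in RAH-6, and 518, 455 and 578 in DA5-3. The 3 lines did not overlap, and Crb3 fell by 1.69 ± 0.15 against DA5-3 (adjusted p = 1.59e-06) and by 1.07 ± 0.15 against RAH-6 (adjusted p = 0.000492). The other probe sets of Crb3 ran the same way against RAH-6, at -0.63 and -0.88, and the call between the lines was lost without RAH-2 replicate 1. Rhou was below 100 in RAH-2 alone, at 82.4, 58.9 and 76.6, against 240, 165 and 147 in RAH-6 and 221, 201 and 153 in DA5-3. It was at least 1.80-fold lower than in RAH-6 and at least 1.89-fold lower than in DA5-3 (adjusted p = 0.00253 and 0.00032), the call against RAH-6 being lost without RAH-6 replicate 1.

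Nrk, an X-linked kinase gene known from the mouse placenta, read 5.77, 7.84 and 6.53 in RAH-2, 61.3, 89.8 and 78.4 in RAH-6, and 491, 366 and 415 in DA5-3. It was at least 4.21-fold lower in either haploid line than in DA5-3, and no fold is given between the haploid lines, both of which were below 100. Nrk passed the filter on signal through the DA5-3 arrays alone and so had to be lower in the haploid lines. The X-linked S100g, which encodes a calcium-binding protein and was singled out after its values were seen, had 24.97, 33.9 and 26.9 in RAH-2, 134, 139 and 150 in RAH-6, and 442, 431 and 442 in DA5-3. The lines were again separate, with RAH-2 at least 1.41-fold below RAH-6 and at least 4.38-fold below DA5-3.

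Art1, Sp100, Tap2 and Tagln were also lower in RAH-2 than in both other lines, with RAH-6 not called against DA5-3. Tagln, which encodes the actin-binding protein transgelin, was below 100 on all RAH-2 arrays (42.1, 50.6 and 53.2), against 124, 200 and 72.4 in RAH-6 and 193, 170 and 132 in DA5-3, and its call against RAH-6 was lost when the first RAH-2 array or the second RAH-6 array was left out. Tap2, a peptide transporter of antigen presentation, was at most 53.3 in RAH-2 and at least 127 in DA5-3. Sp100, a nuclear body protein, and Art1, an ADP-ribosyltransferase, were at most 69.8 and 41.6 in RAH-2 and at least 96.6 and 87.1 in RAH-6. In DA5-3 Art1 read 143, 118 and 56.8, the last of them under the floor. The calls of Sp100 and Tap2 between the lines were each lost when RAH-2 replicate 1, or replicate 1 or 3 of RAH-6, was left out, and that of Sp100 also without RAH-2 replicate 3 or RAH-6 replicate 2. Another 4 of the genes named by the rule, Hs3st1, C1qtnf5, Prrx2 and Cemip, were below 100 on every array of both haploid lines, as were 8 of the 29 genes in all, which passed the filter through the DA5-3 arrays alone. The calls of the 4 against RAH-6 therefore compare values under the floor, and each was lost without RAH-2 replicate 1. Those of Hs3st1 and Prrx2 were also lost without RAH-2 replicate 3, those of C1qtnf5 and Prrx2 without replicate 1 or 3 of RAH-6, and those of Cemip and Prrx2 without RAH-6 replicate 2.

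**Figure D2:**
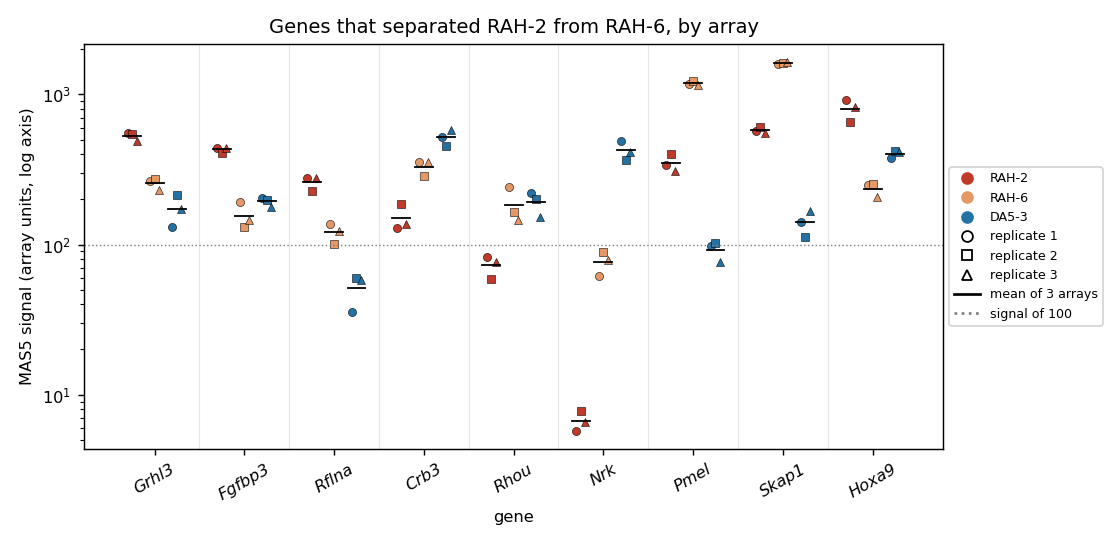
MAS5 signal (array units, log axis) of 9 genes that separated RAH-2 from RAH-6, on each array of RAH-2, RAH-6 and DA5-3, with the mean of 3 arrays as a line and a signal of 100 dotted. RAH-2 is highest for Grhl3, Fgfbp3, Rflna and Hoxa9, lowest for Crb3, Rhou and Nrk, and between RAH-6 and DA5-3 for Pmel and Skap1. For Nrk every array of both haploid lines is below 100, and it passed the filter on signal through DA5-3 alone.

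Of the 29 genes lower than in both other lines 7 were on the list of mesenchymal markers, and for these, Tagln excepted, the RAH-2 replicates were uneven. Col5a2, a fibrillar collagen gene, had signals of 97.9, 1117 and 151 in RAH-2 replicates 1, 2 and 3, against 1320, 1405 and 1200 in RAH-6 and 12240, 12340 and 12880 in DA5-3. Replicate 2 lay near the RAH-6 arrays, and replicates 1 and 3 far below them. Vim, the intermediate filament gene of mesenchymal cells, showed the same split at 198, 1231 and 271 in RAH-2, against 1269, 1112 and 1059 in RAH-6 and 5206, 5168 and 5724 in DA5-3. Cdh11, a mesenchymal cadherin, read 49.7, 815 and 106 in RAH-2, 618.5, 544 and 545 in RAH-6, and 3795, 4681 and 4911 in DA5-3. In the calcium-binding protein gene S100a4 the RAH-2 signals were 76.8, 398 and 80.4, against 367, 368 and 425 in RAH-6 and 521, 496 and 557 in DA5-3. Replicate 2 lay within the RAH-6 range for S100a4, while the other RAH-2 arrays were below 100. Pmp22, which encodes a myelin protein also made by mesenchymal cells, followed at 68.7, 406 and 69.5 in RAH-2, 404, 377 and 372 in RAH-6, and 1597, 1420 and 1568 in DA5-3. The calls of Vim, S100a4, Pmp22 and the matrix gene Ccdc80 against RAH-6 were lost when replicate 1 or 3 of RAH-2, or any single array of RAH-6, was left out, and that of Vim also without DA5-3 replicate 2. Col5a2 lost its call without replicate 1 or 3 of RAH-2 or replicate 1 or 2 of RAH-6, and Sparc without replicate 1 or 3 of RAH-2. Cdh11 was not called with all arrays and was called without replicate 2.

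Against DA5-3 most mesenchymal markers were lower in RAH-2. Of 30 fibroblast and mesenchyme markers measured among 44 listed, 23 were lower, beside 3.20% of all genes, and 0 higher in RAH-2 than in DA5-3, with a median of -2.54, or -2.37 with genes that have only a bound set at it. In RAH-6 against DA5-3, a comparison with the same DA5-3 arrays, 21 were lower, beside 2.91% of all genes, and 0 higher, with a median of -1.93. Of the 30 genes, 2 were below 100 on every array of both haploid lines. They passed the filter on signal through DA5-3 alone and so had to be lower in the haploid lines. Between the lines 7 of the 30 were lower in RAH-2 (Col5a2, Vim, Tagln, S100a4, Mmp2, Sparc and Ccdc80), beside 0.611%, with a median of -0.84. Among the members not called, Col12a1 and Fbln1 differed by 0.74 and 0.43 from DA5-3, upward in RAH-2, and the matrix protein fibronectin (Fn1) ranged between 13690 and 14080 in RAH-2, between 14280 and 15300 in RAH-6, and between 14840 and 14920 in DA5-3. Summed over the 30 genes, signals were 19390, 27273 and 20242 in RAH-2, 27419, 28319 and 27766 in RAH-6, and 75992, 76476 and 80804 in DA5-3. Fewer mesenchymal cells in a culture and less of these RNAs per cell cannot be told apart in bulk RNA. The fibroblast markers Lum and Thy1 were below 100 on all 9 arrays. A further probe set of Mmp2 ran the other way against DA5-3, at 0.70, with means of 116 in RAH-2 and 63.5 in DA5-3, and the call of Mmp2 against RAH-6 was lost with the mean of its probe sets.

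**Figure D3:**
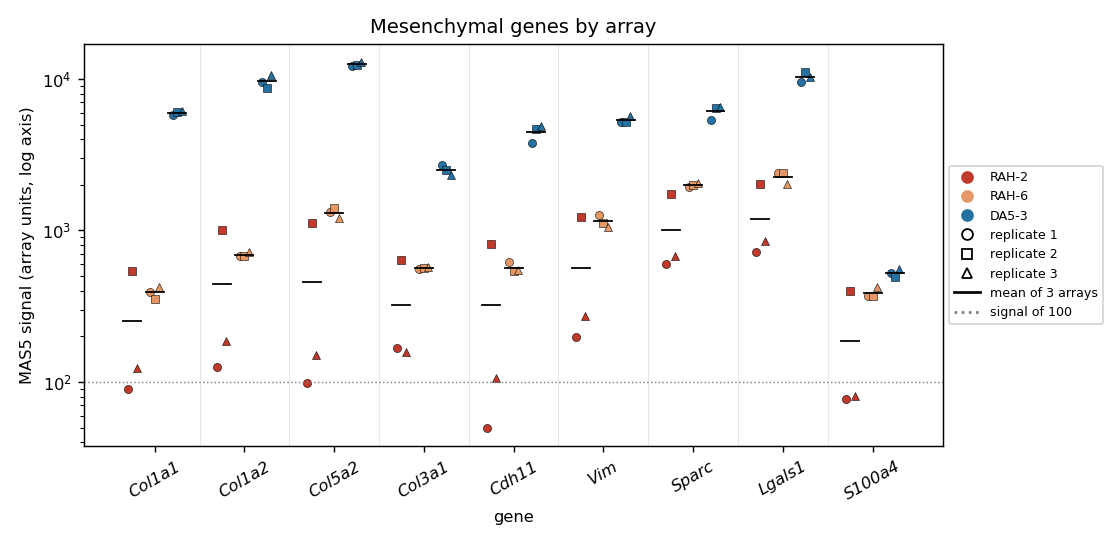
MAS5 signal (array units, log axis) of 9 mesenchymal genes on each array of RAH-2, RAH-6 and DA5-3, with replicates by symbol, the mean of 3 arrays as a line and a signal of 100 dotted. The RAH-2 square (replicate 2) stands near the RAH-6 arrays, the other RAH-2 arrays below them, and DA5-3 is highest for all 9.

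How uneven replicate 2 is was counted over all tested genes, as a description. On RAH-2 replicate 2, 47 genes were at least 1 log2 unit above the nearer of the other RAH-2 arrays. Replicates 1 and 3 had 1 such gene each, and the arrays of RAH-6 and DA5-3 had 1 to 5. Downward it was not unusual, with 4 genes (Acvr1c, Msl3l2, Sult5a1 and Mtnap1, chosen for these values) at least 1 below the nearer array, against 18 and 11 on RAH-2 replicates 1 and 3 and 7 to 16 elsewhere. Of the 47 genes 37 (78.7%) were called higher in DA5-3 than in RAH-6, beside 2.91% of all genes, and 43 were called lower in RAH-2 than in DA5-3. A gene below 100 on RAH-2 replicates 1 and 3 passes the filter on signal only with RAH-6 or DA5-3 arrays. The choice of the 47 thus partly sets these counts, and without the filter 203 genes were uneven. Besides the 14 genes on the mesenchymal list, 29 were on no list, among them the chemokine genes Ccl2 and Ccl7 and the macrophage growth factor gene Csf1.

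In median signal over these genes, chosen for high values on replicate 2, that array stood nearer to RAH-6 than to DA5-3. The choice also favours low values on replicates 1 and 3. Over the 47 genes its signal had a median of 25.4% of the DA5-3 mean, against 5% and 7.17% in RAH-2 replicates 1 and 3, and 23.7% in RAH-6. Within the range of the RAH-6 arrays lay 18 of its values, with 23 above and 6 below, whereas replicates 1 and 3 were both below all RAH-6 arrays for 46 of the 47. Its Gapdh 3′ to 5′ ratio was 1.23, against 1.24 and 1.30 on replicates 1 and 3, and 48.4% of its probe sets reached 100, against 47.4% and 47.3%. Sox2, the pluripotency factor, read 6682 on replicate 2 and 8516 and 8301 on replicates 1 and 3, while Esrrb read 3931 on replicate 2 and 3872 and 3904 on the others. The part of other cells in the values of replicate 2 was not tested.

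**Figure D4:**
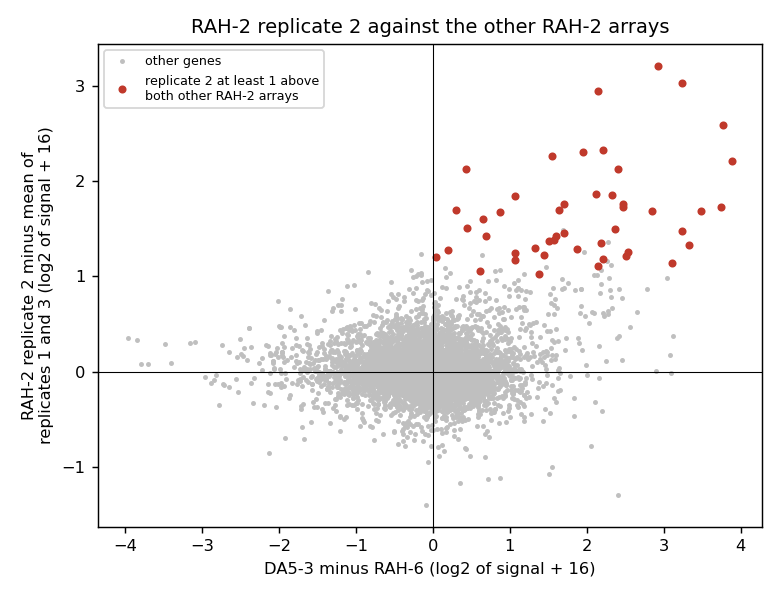
Each point is a tested gene, with the log2 difference between DA5-3 and RAH-6 on the x axis and RAH-2 replicate 2 minus the mean of RAH-2 replicates 1 and 3 on the y axis, both of log2(signal + 16). The 47 genes at least 1 above both other RAH-2 arrays, in red, all lie where DA5-3 exceeds RAH-6.

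The number of genes called lower in RAH-2 than in RAH-6 hinged on that array. Without replicate 2, 110 genes (1.19% of 9280) were lower and 15 (0.162%) higher than in RAH-6, and 54 of the 57 lower genes called with all arrays were among the 110. Genes lower than in both other lines numbered 74 (0.797%) in place of 29, and all 29 were among them, while those higher numbered 5 (0.0539%). Without replicate 1 they numbered 8, and without any other single array between 15 and 22. On the mesenchymal list 16 of the 30 were lower than in RAH-6 without replicate 2 (median -1.23) and 1 without replicate 1. On the upward side, 13 of the 18 genes called higher than in RAH-6 were called with and without replicate 2. Against both lines 4 of the 6 higher genes were, Grhl3 and Fhit being the exceptions. Leaving out replicate 1 gave 11 genes higher than in RAH-6 and 3 higher than in both lines. The 5 hypoxia response genes were called against RAH-6 whichever array was left out. Fhit did not pass the filter on signal once that array was left out. Against DA5-3 the counts without replicate 2 were 323 higher (3.48%) and 328 lower (3.53%), of which 295 and 289 were called with all arrays as well.

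**Figure D5:**
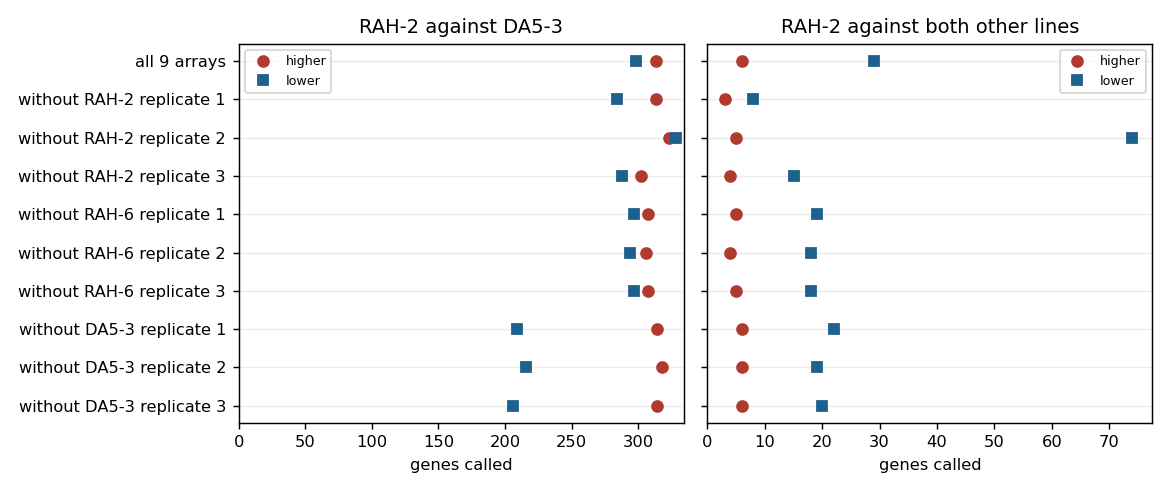
Number of genes called higher and lower in RAH-2 against DA5-3 (left panel) and against both DA5-3 and RAH-6 (right panel), with all 9 arrays and with each array left out. The lower count against both lines spans 8 to 74 and depends on RAH-2 replicates 1 and 2, and the higher count spans 3 to 6.

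A different group of genes placed RAH-2 between the other lines, and those described here were chosen after their values were seen. For 10 genes RAH-2 was called higher than DA5-3 and lower than RAH-6. Pmel, which encodes the fibril protein of the melanosome, had signals of 336, 398 and 309 in RAH-2, 1170, 1220 and 1153 in RAH-6, and 97.5, 102 and 76.7 in DA5-3. The lines did not overlap, and RAH-2 differed by 1.75 ± 0.12 from DA5-3 and by -1.73 ± 0.12 from RAH-6 (adjusted p = 2.74e-07 and 9.77e-06). Skap1, an adaptor of T cell signalling, read 573, 602 and 555 in RAH-2, 1591, 1614 and 1631 in RAH-6, and 141, 112 and 167 in DA5-3. Gsg1, a gene of male germ cells, showed the same order at 794, 805 and 859 in RAH-2, 1634, 1803 and 1779 in RAH-6, and 267, 244 and 196 in DA5-3. Tmem140, Irak3, Slc38a3, S100a1, Gpnmb, Slc6a3 and Tspan15 made up the 10, of which Gpnmb is another melanosome gene. Slc6a3 and Tspan15 were below 100 on every RAH-2 and DA5-3 array and passed the filter through RAH-6 alone. Gpnmb and S100a1 lost their calls between the lines without any single haploid array. Tspan15 lost that call without replicate 2 or 3 of RAH-2. Against DA5-3 the calls of Tmem140 and Slc6a3 were lost without RAH-2 replicate 2 or DA5-3 replicate 3, that of Tspan15 without RAH-2 replicate 1 or DA5-3 replicate 2, that of Irak3 without RAH-2 replicate 3, that of Gpnmb without DA5-3 replicate 3 and that of Slc38a3 without DA5-3 replicate 2.

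Hoxa9, Hoxa7 and the antisense RNA Hoxa11-as, from the Hoxa cluster on chromosome 4 that patterns the body axis, were called higher in RAH-2 than in RAH-6, and were chosen after their values were seen. Hoxa10, Hoxa11, Hoxa5 and Hoxa3l1 were tested and not called between the lines. Hoxa9 had signals of 916, 654 and 819 in RAH-2, 248, 252 and 206 in RAH-6, and 375, 417 and 414 in DA5-3. RAH-2 exceeded RAH-6 by 1.68 ± 0.12 (adjusted p = 9.77e-06), and its 0.95 ± 0.12 over DA5-3 was under the limit on size, which it passed without replicate 2. The order of the lines was not the same for the other two. Hoxa7 was near the floor, at 120, 88.9 and 150.5 in RAH-2, below 100 on every RAH-6 array, and at 137, 110 and 80.5 in DA5-3. Hoxa11-as had 91.9, 110 and 99.5 in RAH-2, was below 100 on every RAH-6 array, and was highest in DA5-3 at 209, 182 and 231, with a difference of -0.94 between RAH-2 and DA5-3. Hoxa7 lost this call without RAH-2 replicate 3. Gbx2, a homeobox gene of the naive list, read 1661, 1110 and 1644 in RAH-2, 713, 681 and 647 in RAH-6, and 1043, 1002 and 1193 in DA5-3, a difference of 1.07 ± 0.13 between the haploid lines that was called unless RAH-2 replicate 1 or 3 was left out.

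Imprinted genes gave 1 call between the lines. Phlda2, a maternally expressed imprinted gene that limits placental growth in the mouse, was below 100 in RAH-2 (43.8, 68.1 and 53.3), against 200, 192 and 204 in RAH-6 and 89.8, 126 and 132 in DA5-3. It was at least 1.99-fold lower than in RAH-6 (adjusted p = 0.000199). Of 16 paternally expressed genes measured 0 were called between the lines by limma, although 1 higher and 6 lower passed the adjusted p alone. Of 20 maternally expressed genes only Phlda2 was called, while 3 higher and 6 lower passed the adjusted p alone. Over all genes 0.193% were called higher and 0.611% lower, and 9.21% and 9.76% passed the adjusted p alone. H19, an imprinted RNA looked up in every case, averaged 2530 in RAH-2, 3766 in RAH-6 and 3735 in DA5-3. It was 0.56 ± 0.07 below DA5-3 and 0.57 ± 0.07 below RAH-6 (limma adjusted p = 2.45e-05 and 0.000196), under the limit on size. Igf2 was called lower than in DA5-3, at -3.65 to -3.28 over the alternatives, and not called against RAH-6. Meg3 and Mest, also looked up, were called against neither line. Dio3, which encodes an enzyme that inactivates thyroid hormone, was called higher in RAH-2 than in DA5-3 (1.11 ± 0.11) and not in RAH-6 (0.77 ± 0.11), yet the lines differed by only 0.34 ± 0.11. That difference passed the adjusted p (limma, 0.0466) but not the limit on size.

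Few of the genes called against DA5-3 in RAH-2 alone were also called between the lines. Of 155 genes called in RAH-2 and not in RAH-6 against DA5-3, 64 were higher and 91 lower in RAH-2. Of these 155, 3 higher and 12 lower were also called between the lines. For 89 the adjusted p between the lines was 0.05 or more. Without the limit on size, 24 higher and 42 lower passed it in the same direction. Krt18, a keratin of simple epithelia, is an example of a difference between the lines under the limit on size. Its signals were 5868, 6810 and 7520 in RAH-2, 4709, 5226 and 5137 in RAH-6, and 3188, 2858 and 3198 in DA5-3. It rose by 1.12 ± 0.08 over DA5-3 in RAH-2, was 0.70 ± 0.08 over DA5-3 in RAH-6 and not called there, and differed by 0.41 ± 0.08 between the lines. Irf7, a regulator of interferon genes, had signals of 150.3, 232 and 140 in RAH-2, 327, 206 and 258 in RAH-6, and 507, 443 and 554 in DA5-3. The haploid lines overlapped for Irf7, and their difference of -0.57 ± 0.19 was not called (adjusted p = 0.0548). No gene was called higher in one haploid line and lower in the other against DA5-3.

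Some lists held genes called against DA5-3 and none called between the haploid lines. The counts stand beside 3.36% of all genes called higher and 3.20% called lower than in DA5-3. Between the haploid lines 0.193% of all genes were called higher and 0.611% lower, and 9.21% and 9.76% passed the adjusted p alone. With so few calls between the lines, 0 calls in a short list do not set it apart. Of 29 genes induced by ERK signalling or in the immediate early response, 9 were higher and 1 lower than in DA5-3, with a median of 0.46, and 0 were called between the haploid lines by limma, although 3 higher and 6 lower passed the adjusted p alone. Jun, a subunit of the AP-1 transcription factor, read 3722, 4624 and 4582 in RAH-2, 5035, 5027 and 5001 in RAH-6, and 894, 890 and 913 in DA5-3. Dusp6, a phosphatase that turns ERK off, differed by -0.83 ± 0.14 between RAH-2 and RAH-6 and passed the limit on size without replicate 2. Of 9 measured germline genes that DNA methylation silences, 3 were higher than in DA5-3 (Sycp3, Smc1b and Taf7l) with a median of 0.62, and 0 were called between the lines, where 1 higher and 0 lower passed the adjusted p alone. Among 15 interferon response genes 5 were lower than in DA5-3 (Irf7, Bst2, Psmb8, Psmb9 and Ifit1), with a median of -0.42, and 0 were called between the lines, where 1 higher and 3 lower passed the adjusted p alone. Ccnd1, the cyclin that drives entry into the cell cycle and a member of the ERK list, read 1327, 1198 and 1184 in RAH-2, 1070, 927 and 896 in RAH-6, and 4754, 4256 and 4068 in DA5-3. It was low in both haploid lines, and fell by 1.80 in RAH-2 against DA5-3 (adjusted p = 6.1e-09).

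Several lists of core ES cell functions held 0 genes called against DA5-3, beside 3.36% of all genes called higher and 3.20% lower. None of 19 naive pluripotency genes was called between RAH-2 and DA5-3 by limma, although 5 higher and 9 lower passed the adjusted p without the limit on size, beside 28.1% and 22.5% of all genes, with a median of -0.10. Nor was any gene of DNA replication, mitosis, the respiratory chain or cholesterol and fatty acid synthesis called by limma against either line. Against RAH-6 only 0.193% of all genes were called higher and 0.611% lower. Without the limit on size, 6 of 33 replication genes were higher and 7 lower than in DA5-3, as were 6 and 5 of 28 mitosis genes, 14 and 5 of 38 respiratory chain genes, and 2 and 11 of 28 cholesterol and fatty acid genes. Against RAH-6, 17 cholesterol and fatty acid genes and 6 replication genes were higher by the same measure and 0 of either lower, with medians of 0.28 and 0.10, beside 9.21% of all genes higher and 9.76% lower.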

How the data were processed

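Total RNA of 12 samples was hybridised to Affymetrix Rat Genome 230 2.0 arrays. The authors deposited log2 signals, made with MAS5 per the submitters' processing notes, and its version is not given in the sources used here. A deposited MAS5 report was left aside, since its array names occur in no sample label. The log2 values were turned back into linear signals, scaled to a 2% trimmed mean of 500 per array and transformed as log2(signal + 16), an offset that damps differences near background. Of 31099 probe sets 57 were controls, 20832 named 1 gene in the platform annotation, 436 named several and 9831 none. Only the first kind was tested, kept where the signal was at least 100 on at least 3 of the 9 ES arrays. A gene with several kept probe sets, as 2300 had, was represented by the one with the highest mean. RefSeq (GRCr8) matched 20818 of these probe sets and changed 0 symbols.

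The 9323 genes were fitted with limma 3.58.1 in R 4.3.3 (moderated variances with a trend on mean signal, Benjamini-Hochberg adjustment over all genes), which was tested on simulated data. No replicate block entered the fit. The fit used the 9 ES arrays together, so that the lines share 1 estimate of the spread. Where every array of a group was below 100, a bound of the fold against 100 is given, as for 223 of the genes called against DA5-3. No 2 arrays held identical values.

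Named genes followed 1 rule. It took up to 10 genes each way called against both lines and not in RAH-6 against DA5-3, without overlap. It added 6 each way called between the lines and further from DA5-3 in RAH-2 than in RAH-6, the 10 most uneven genes of RAH-2 replicate 2 each way, up to 4 called members per list, and genes looked up in every case. Genes outside it were chosen after their values were seen, namely Hoxa9, Hoxa7, Hoxa11-as, Pmel, Gpnmb, Skap1, Gsg1, Tmem140, Irak3, Slc38a3, S100a1, Slc6a3, Tspan15, S100g, Gbx2, Dusp6, the uncalled members given as examples and those of the closing section. The members, the 31 gene lists and the rule were chosen with earlier results of these data known. Alternatives covered offset, filter, scaling, probe set, samples, variance model, replicate block and each array left out.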

Additional observations from a re-analysis of the deposited data

Results flagged for a closer look

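Every gene named here was singled out because its difference from DA5-3 was not the same in RAH-2 as in RAH-6, tested by the contrast of RAH-2 against RAH-6 (limma, n = 3 and 3). The values are fitted log2 differences, RAH-2 minus RAH-6, and depend on the offset where a line is below 100. Of 54 named genes called in this contrast, 5 are left out here because both lines were below 100 on every array. Fhit and Myb passed the filter on signal through RAH-2 alone, and Sema3c, Slc6a3 and Tspan15 through RAH-6 alone, so their differences are a description.

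Among hypoxia response genes the differences were 1.52 for Adm, 1.35 for Ankrd37, 1.35 for Ddit4, 1.18 for Pfkfb3 and 1.10 for Ero1a. Other genes higher in RAH-2 were Hoxa11-as (2.15), Hoxa9 (1.68), Hoxa7 (1.31), Fgfbp3 (1.39), Mtnap1 (1.24), Myb (1.10), Gbx2 (1.07), the adenylate kinase gene Ak4 (1.07), the xylosyltransferase gene Xylt2 (1.04), Fhit (1.02), Rflna (1.02) and Grhl3 (1.00).

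Mesenchymal and cytoskeletal genes lower in RAH-2, for most of which RAH-2 replicate 2 stood above the other RAH-2 arrays, were Col5a2 (-2.25), Mmp2 (-1.63), Pmp22 (-1.46), Vim (-1.45), S100a4 (-1.38), Gap43 (-1.21), Sparc (-1.14), Tagln (-1.11), Ccdc80 (-1.10) and Tpm2 (-1.09). Genes for which RAH-2 lay between RAH-6 and DA5-3 were Pmel (-1.73), Skap1 (-1.46), Tmem140 (-1.32), Irak3 (-1.28), Gpnmb (-1.18), S100a1 (-1.13), Gsg1 (-1.07), Slc38a3 (-1.06), Slc6a3 (-1.27) and Tspan15 (-1.06). The remaining lower genes were S100g (-1.82), Art1 (-1.61), Phlda2 (-1.61), Sh3gl3 (-1.56), Sema3c (-1.46), the coagulation starter F3 (-1.31), Sp100 (-1.22), Rhou (-1.16), the oxidase subunit gene Cyba (-1.13), the plasminogen activator gene Plat (-1.12), Crb3 (-1.07) and Tap2 (-1.04).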

How the results depend on the processing

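The 268 differences of named genes were refitted under 22 alternatives, and of the values obtained 5366 kept their side of the threshold, 243 were no longer called and 48 became called. Of the called differences 0 changed sign, whereas 27 that were not called did so under at least 1 alternative. Adm, Ankrd37, Ddit4 and Pfkfb3 against RAH-6 were called in every one. Of 288 counts 233 stayed within 1.5 times the value with the settings used.

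An offset of 64 gave 178 genes higher in RAH-2 than in DA5-3, 9 higher and 17 lower than in RAH-6, 2 higher and 9 lower than in both lines, and 18 uneven genes on RAH-2 replicate 2. Without the filter on signal, 461 were lower than in DA5-3, 87 lower than in RAH-6, 4 of the mesenchymal list lower than in RAH-6, and 203 uneven. A filter at 200 gave 185 lower than in DA5-3, 35 lower than in RAH-6 and 17 lower than in both. Quantile normalization gave 16 lower than in both and 27 uneven, and of genes called against RAH-6, 24% with the settings used, 34.5% under quantile normalization, 34.6% with the offset of 64, 48.6% without the limit on size and 12% without RAH-2 replicate 2 were higher. Adding the round sperm arrays gave 4 mesenchymal genes lower than in RAH-6 and 84 uneven. Fits of only the 6 arrays compared gave 10 genes lower than in both lines and 3 mesenchymal ones lower than in RAH-6. A variance without trend gave 17 and 2, and array weights, which were 0.736 for RAH-2 replicate 2 and lowest, 0.393, for DA5-3 replicate 1, gave 50 and 13. Without the limit on size the counts were 2617 higher and 2102 lower than in DA5-3, 859 and 910 against RAH-6, 303 and 278 against both, 2826 and 2367 in RAH-6 against DA5-3, and 17 and 16 hypoxia genes higher than in DA5-3 and than in RAH-6.

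Leaving out each array gave 206 to 328 genes lower than in DA5-3, 11 to 18 higher and 37 to 110 lower than in RAH-6, 3 to 6 higher and 8 to 74 lower than in both, and 1 to 16 mesenchymal genes lower than in RAH-6. In RAH-6 against DA5-3, 188 to 280 were lower. Without a DA5-3 array fewer lower genes can pass a filter that needs 3 arrays. Leaving out RAH-2 replicate 2 and DA5-3 replicate 1 together gave 96 lower than in RAH-6, 59 lower than in both, 179 lower in RAH-6 than in DA5-3, and 16 mesenchymal genes. The list counts without RAH-2 replicate 2 were added after seeing the data. The cause of these moves was not tested. Deviations of arrays with the same replicate number correlated between -0.14 and 0.04, so the numbers do not pair the samples, and the replicate block gave 314 genes higher and 298 lower than in DA5-3, 18 and 59 against RAH-6, and 6 and 31 against both, with the calls of Sp100 and Prrx2 against RAH-6 lost.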

Other observations

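No chromosome stood apart in RAH-2. Over the 21 chromosomes with tested genes, 214 to 1159 genes each, median differences ranged from 0.004 to 0.08 against DA5-3 and from -0.03 to 0.04 against RAH-6. Signals are scaled per array, so a shift shared by all chromosomes cannot be seen in these values.

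Some genes were lower in RAH-2 and DA5-3 than in RAH-6, and were chosen after their values were seen. Sh3gl3, which encodes an endophilin of vesicle recycling, had signals of 139, 166 and 165 in RAH-2, 517, 477 and 480.4 in RAH-6, and 86.7, 90.2 and 62.4 in DA5-3. RAH-2 lay above DA5-3 for Sh3gl3 without overlap, by 0.62 to 0.98 over the alternatives, under the limit on size. The guidance cue gene Sema3c read 45.2, 43.2 and 48.0 in RAH-2, 171, 159 and 131 in RAH-6, and 38.9, 61.2 and 46.9 in DA5-3, so it was detected in RAH-6 alone. Myb, the transcription factor of blood progenitors, was detected in RAH-2 alone, at 154, 107 and 117 in RAH-2, against 66.7, 54.4 and 32.3 in RAH-6 and 68.1, 63.4 and 49.8 in DA5-3. Sema3c passed the filter on signal through the RAH-6 arrays alone and Myb through the RAH-2 arrays alone. Both therefore had to differ, and their values are a description. The call of Myb against RAH-6 was lost without RAH-6 replicate 3.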
